A study of Mus musculus with 30 samples.

Results

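The genes described are 10 transcription regulators of spermiogenesis, the phase in which round spermatids are remodelled into sperm: Crem, Fhl5, Rfx2, Rfx3, Sox30, Sox5, Mybl1, Tcfl5, Tbpl1 and Brdt. They were chosen by name for their known roles in male germ cells, and rows with these names were taken from both tables of sperm RNA. Of the 10 genes, 9 were found among the 16242 genes and repeat families of the 24 h table and 4 (Crem, Rfx2, Rfx3 and Tcfl5) among the 3082 of the 46-day table. Mybl1, a MYB family activator of meiotic genes, was not analysed here.

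In round spermatids the cyclic AMP-responsive factor CREM, helped by its coactivator FHL5, switches on genes for protamines, transition proteins and the flagellum, while RFX2 and RFX3 bind the X-box of genes needed for cilia and flagella. MYBL1 and TCFL5 act earlier, in meiotic spermatocytes, and SOX30, TBPL1 and BRDT are needed for the programme that follows meiosis. Transcription stops as the spermatid nucleus condenses, and mature sperm hold only residual mRNA of such genes.

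The study asked how activating nuclear receptors of the PPAR family in adult males alters sperm RNA. Males of the C57Bl/6J strain, 3 months old, were injected intraperitoneally with 10 µg per kg tesaglitazar, which activates both PPARα and PPARγ, in DMSO and saline (TESA), or with vehicle (CTRL), 2 times per week for 4 weeks. Sperm was taken from the cauda epididymis by swim-up and treated with a buffer that lyses somatic cells. It was collected 24 h after the last injection for polyadenylated RNA (4 TESA and 4 CTRL libraries) or 46 days after it for total RNA depleted of rRNA (7 TESA and 7 CTRL libraries). Time and library type changed together, and their parts in any difference between the tables cannot be told apart. The paper gives its group sizes in animals, and the labels do not tie a library to an animal.

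The 24 h libraries held 15337589 to 27709990 counts, and the members together took 1074 (CTRL 4) to 4438 (CTRL 8) of them. The 46-day libraries held 4538102 to 13513816 counts. There the 4 members found were covered unevenly, with 29 counts in TESA 02, 112 in TESA 12, 1995 in TESA 11 and 4584 in CTRL 14, and the TMM factors, which scale each library to the bulk of its features, ran from 0.0981 (TESA 02) to 8.15 (CTRL 14). Levels are given as CPM, the counts of a gene per 1000000 counts of its library after TMM scaling. They were not divided by transcript length, so a gene named as highest in CPM of a list is so in counts only, and its level is not set against that of another gene.

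The sperm label was checked against marker lists. All 8 markers of late spermatids and sperm were found at both times. Their summed level at 24 h was 9824, 5126, 11044 and 6842 CPM in TESA 1, 3, 5 and 7 and 8496, 3520, 9107 and 11871 CPM in CTRL 2, 4, 6 and 8, led by Odf1, a protein of the outer dense fibres of the tail. At 46 days the sum was 578 ± 139 CPM in TESA and 576 ± 139 CPM in CTRL (SD, n = 7 each), led by the protamine Prm2. The groups overlapped at both times.

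Markers of other cells were also read at 24 h. Of 12 leukocyte markers 11 were found, with a sum of 1955 ± 550 CPM in TESA and 1547 ± 362 CPM in CTRL (SD, n = 4 each). Nearly all of it was Cd52 (1849 and 1438 CPM), a surface antigen that the epididymal epithelium makes too. Of 12 epididymal markers 6 were found, with 704 ± 165 and 1083 ± 688 CPM, led by the secreted protein Crisp1. The 3 of 10 Sertoli markers found had 694 ± 397 and 494 ± 104 CPM, nearly all from Clu. For the spermatocyte list, 5 of 12 were found with 10.3 ± 3.87 and 13.4 ± 2.81 CPM, and Sycp1, Sycp3 and Spo11 were not among them. The spermatogonial list (6 of 10) had 47.3 ± 8.35 and 60.0 ± 18.8 CPM, led by Uchl1, and the red blood cell list (4 of 5) had 108 ± 38.2 and 138 ± 97.7 CPM, led by Hba-a2. None of the 7 Leydig cell markers was found. At 46 days Msh4 and Uchl1 were the markers found outside the late spermatid list. In every list the groups overlapped, and the part of these cells in the members' values was not tested. In such bulk samples fewer cells of a type and less RNA per cell cannot be told apart.

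At 24 h the residual mRNA of 8 of the 9 members had a log2 difference below 0 in TESA against CTRL, and Sox5 was the exception. Of all 13752 features tested, 7183 were below 0. The members were read in the same libraries, so their signs are not independent of each other. Among 13752 features tested with the quasi-likelihood method of edgeR, 0 of 9 members had a Benjamini-Hochberg adjusted p under 0.05, beside 0% of all features, and all 9 had an adjusted p of 1.00. At an unadjusted p under 0.05 the count was 0 of 9 members, beside 2.71% of all features. The exact test of edgeR, DESeq2 and limma voom called 0 of 9 as well. The median log2 difference was -0.40 over the members and -0.02 over all features. Scaled by library totals, without TMM, the median of all features moved to 0.19 and that of the members to -0.15, which is -0.34 relative to all features, and 7 of 9 members were below 0.

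**Figure D1:**
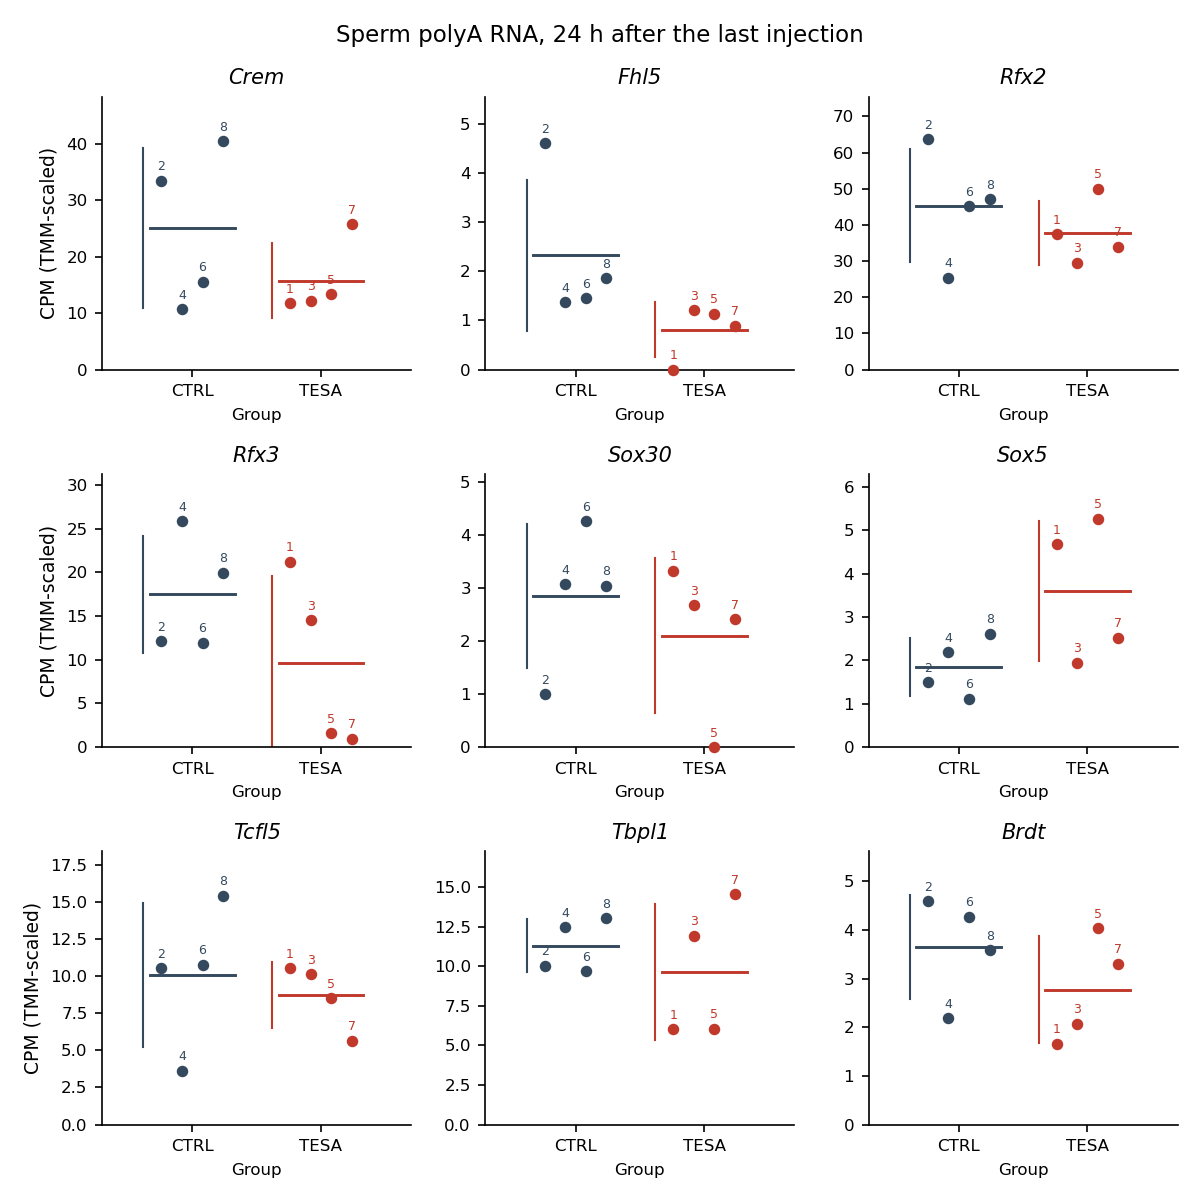
TMM-scaled CPM (vertical axis) of the 9 members found at 24 h in each library, by group (horizontal axis), with the library number above each point. Long horizontal lines are group means and vertical lines 1 SD to either side, stopped at 0. Fhl5 is the member whose 4 TESA points lie below all 4 CTRL points, and Rfx3 is near 0 in TESA 5 and 7.

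Crem encodes the factor at the head of the spermatid programme, as activator and repressor forms that counts per gene do not separate. Its level was 11.8, 12.2, 13.3 and 25.7 CPM in TESA 1, 3, 5 and 7, against 33.4, 10.7, 15.5 and 40.4 CPM in CTRL 2, 4, 6 and 8. CTRL 2 and 8 were above every TESA library, while CTRL 4 was below every one of them, so the groups overlapped. The fitted difference was -0.67 on the log2 scale, 0.630-fold, with a 95% confidence interval from -1.66 to 0.32. It was -1.001 without TESA 7, -0.33 without CTRL 8 and -0.36 with library totals. The counts behind these levels ran from 132 to 1220.

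Fhl5, the LIM-domain coactivator of CREM, was thinly covered, with 0 to 56 counts per library. Its level was 0, 1.21, 1.13 and 0.895 CPM in TESA 1, 3, 5 and 7 and 4.60, 1.37, 1.46 and 1.86 CPM in CTRL 2, 4, 6 and 8. Every TESA library was below every CTRL library, which held for 1.95% of all features tested. Scaled by library totals alone the groups overlapped, since CTRL 4 then had 1.11 CPM and TESA 7 had 1.41 CPM. The 0 in TESA 1 allows a level of up to 0.185 CPM, taking 3 counts as the limit of a count of 0; such limits cover counting error only. The log2 difference was -1.50 with a wide interval, from -3.82 to 0.82, and was -0.92 without CTRL 2.

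Tbpl1 encodes a relative of the TATA-binding protein that round spermatids need. TESA 1 and 5 had 6.04 and 6.06 CPM, below every CTRL library (9.70 to 13.0 CPM), and TESA 7 had 14.5 CPM, above every one. Its log2 difference of -0.23 (SE 0.35) turned to 0.085 with library totals. Brdt encodes a testis-specific bromodomain protein that reads acetylated histones. It ranged from 1.67 to 4.04 CPM in TESA and from 2.18 to 4.60 CPM in CTRL, and the groups overlapped (log2 difference -0.40, SE 0.48, and -0.12 with library totals).

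Rfx2, the X-box factor required for spermatids to build a flagellum, was read from 314 to 1481 counts per library. It had 37.5, 29.5, 50.1 and 33.98 CPM in TESA 1, 3, 5 and 7 and 63.8, 25.4, 45.2 and 47.2 CPM in CTRL 2, 4, 6 and 8. The highest and the lowest library were both CTRL. The log2 difference was -0.27, with a 95% interval from -0.92 to 0.39, the narrowest among the 9 members. It was -0.039 without CTRL 2, -0.44 without CTRL 4, -0.41 without TESA 5 and -0.050 with library totals.

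Rfx3, the related factor best known for cilia of the node, brain and pancreatic islet, split the TESA libraries. TESA 1 and 3 had 21.2 and 14.5 CPM, while TESA 5 and 7 had 1.58 and 0.964 CPM from 32 and 42 counts. The CTRL libraries 2, 4, 6 and 8 had 12.1, 25.9, 11.9 and 19.96 CPM. The low pair was below every CTRL library and the other TESA libraries lay inside the CTRL range. TESA 5 and 7 also had the highest sums of the Sertoli markers (1210 and 802 CPM, at most 611 CPM elsewhere). The same held for the leukocyte markers (2133 and 2496 CPM, at most 2008 CPM elsewhere). Their epididymal sums were 482 CPM, the lowest at 24 h, and 812 CPM, inside the CTRL range. Their red blood cell sums, 64.7 and 147 CPM, were inside the CTRL range as well. The Sertoli sum was nearly all Clu and the leukocyte sum nearly all Cd52, so each sum mostly follows that gene alone and does not show a cell type. A link between these markers and Rfx3 was not tested. The log2 difference was -0.87 with a 95% interval from -2.72 to 0.98, and it was -1.61 without TESA 1, -0.51 without TESA 5 and -0.50 without TESA 7. Under limma voom with quality weights it was -2.29, and Rfx3 was then the member with an unadjusted p under 0.05, with an adjusted p of 0.642 in limma after Benjamini-Hochberg adjustment. Rfx2 was 50.1 CPM in TESA 5, above 3 of the 4 CTRL libraries, and 33.98 CPM in TESA 7, above CTRL 4 and below the other 3.

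**Figure D2:**
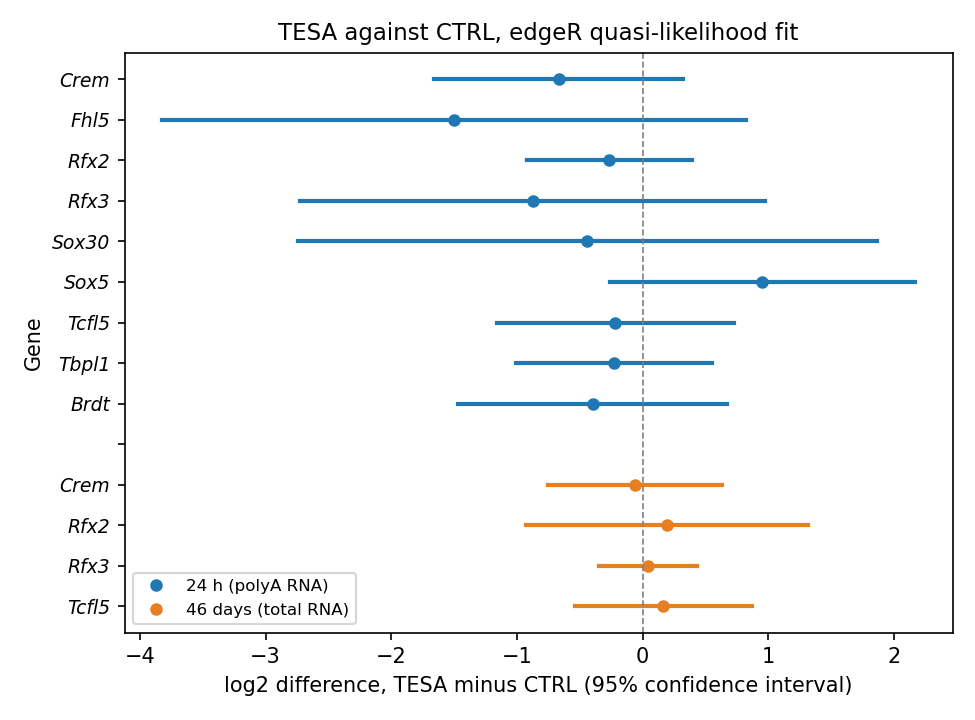
Log2 difference between TESA and CTRL (horizontal axis, points) with its 95% confidence interval (lines) for each member tested (vertical axis), at 24 h in blue and at 46 days in orange. Every interval spans 0, and the 46-day interval of Rfx3, from -0.35 to 0.43, is narrower than its interval at 24 h.

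The SOX factors differed in sign. Sox5, known in the testis for a short form made in spermatids, had 4.69, 1.95, 5.27 and 2.52 CPM in TESA 1, 3, 5 and 7 and 1.504, 2.18, 1.12 and 2.62 CPM in CTRL 2, 4, 6 and 8. TESA 1 and 5 were above every CTRL library and TESA 3 and 7 were inside the CTRL range. Its log2 difference was 0.95, 1.94-fold, with a 95% interval from -0.26 to 2.17, and 0.55 under limma voom. Sox30, which drives the first genes of round spermatids, had 3.33, 2.68, 0 and 2.41 CPM in TESA 1, 3, 5 and 7 against 1.00, 3.07, 4.27 and 3.05 CPM in CTRL 2, 4, 6 and 8. Apart from TESA 5, whose count of 0 allows up to 0.148 CPM, the TESA libraries lay inside the CTRL range. The log2 difference of Sox30 was -0.44 (SE 1.03), and it was -0.012 without TESA 5 and -0.99 under limma voom.

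Tcfl5, a basic helix-loop-helix factor of meiotic and early haploid cells, ranged from 5.64 to 10.5 CPM in TESA and from 3.64 to 15.4 CPM in CTRL, whose library 8 was highest and library 4 lowest. The log2 difference was -0.22 (SE 0.42), turned to 0.064 without CTRL 8 and was -0.53 under limma voom.

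The genes around these factors were read from 4 lists. Of 53 other transcription regulators of spermatogenesis, 43 were tested at 24 h, 22 with a log2 difference below 0 and 21 above 0 (median -0.04). Of 22 genes of the CREM-driven spermatid programme all were tested, 11 on either side (median 0.02). Of 35 ciliary genes of the kind RFX factors regulate, 30 were tested, 22 below 0 and 8 above 0 (median -0.19). Of 27 piRNA pathway and meiotic genes of the kind MYBL1 and TCFL5 regulate, 14 were tested, 7 on either side (median -0.03). Of all 13752 features, 7183 were below 0 (median -0.02). With library totals the 4 medians were 0.19, 0.18, 0.032 and 0.11, beside 0.19 for all features, so all but that of the CREM-driven genes turned sign. Under limma voom the 4 medians were -0.24, -0.10, -0.28 and -0.37, beside -0.084 for all features. The median of the CREM-driven genes was also below 0 without TESA 1, CTRL 4 or TESA 5 (-0.079, -0.092 and -0.16). That of the other regulators was above 0 without CTRL 4, TESA 1 or TESA 5 (up to 0.030), and that of the piRNA and meiotic genes without CTRL 8, TESA 1 or TESA 7 (up to 0.13). Both were above 0 as well with no count filter (0.059 and 0.11) and with filterByExpr (0.0077 and 0.097). By the quasi-likelihood method of edgeR no gene of any list had an adjusted p under 0.05, and in the exact test of edgeR, DESeq2 and limma voom the count was 0 as well. At an unadjusted p under 0.05 2 of the 43 regulators, Nr2c2 and Rfx7, and no gene of the other lists were counted, beside 2.71% of all features.

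Among the other regulators, Nr2c2, an orphan nuclear receptor of germ cells in and after meiosis, had 7.91 CPM in TESA and 12.8 CPM in CTRL, a log2 difference of -0.69 (SE 0.30). Rfx7, a further member of the RFX family, had 5.94 and 12.1 CPM, a log2 difference of -1.02 (SE 0.45). Neither passed the adjusted threshold. Named as highest in CPM of the list were Chd5, a chromatin remodeller of the histone-to-protamine exchange (144 and 207 CPM, log2 difference -0.53, SE 0.31), Spz1, a spermatogenic zip factor (174 and 149 CPM), and Kif17, the kinesin that moves FHL5 out of the nucleus. Kif17 had 60.7 CPM in TESA and 49.6 CPM in CTRL, a log2 difference of 0.29 (SE 0.33), opposite in sign to that of Fhl5.

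The log2 differences of the 22 genes that CREM drives ran from -0.56 to 0.32. Of the 3 highest in CPM, Odf1 had 2276 CPM in TESA and 2342 CPM in CTRL, with a log2 difference of -0.04 (SE 0.43). Smcp, a protein of the mitochondrial sheath, had 1943 and 2354 CPM (log2 difference -0.28, SE 0.49), and Prm2 had 1985 and 1592 CPM (0.32, SE 0.38). The transition protein gene Tnp1 (log2 difference -0.34, SE 0.32) and Akap4, the main scaffold of the fibrous sheath (-0.24, SE 0.27), had the smallest unadjusted p of this list.

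The log2 differences of the 30 ciliary genes tested at 24 h ran from -1.61 to 0.48. Ift122, a part of the intraflagellar transport machinery, had 68.7 CPM in TESA and 93.0 CPM in CTRL (log2 difference -0.44, SE 0.28), and Bbs9, a BBSome subunit, had 33.4 and 44.7 CPM (-0.42, SE 0.30). Ift20 had 28.9 and 27.1 CPM (0.09, SE 0.25). Dync2h1, the heavy chain of the retrograde motor, had 13.6 CPM in TESA and 41.7 CPM in CTRL, a log2 difference of -1.61 whose 95% interval ran from -3.71 to 0.48. Ift81 had 2.14 and 5.44 CPM, a log2 difference of -1.35 with an interval from -2.95 to 0.26. Neither difference passed the test.

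In the piRNA and meiotic list, Mael, which is needed for transposon silencing, had 4.31 CPM in TESA and 7.34 CPM in CTRL (log2 difference -0.77, SE 0.43). Tdrd3 had 12.2 and 8.64 CPM (0.50, SE 0.51), Tdrd7, a Tudor protein of the chromatoid body, 6.07 and 8.53 CPM (-0.48, SE 1.10), and Gtsf1, a cofactor of PIWI proteins, 8.02 and 8.94 CPM (-0.16, SE 0.64). Among the genes named here Tdrd3 alone had a difference above 0, while over the list 7 of the 14 tested were above 0.

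At 46 days 4 members were measured, and by the quasi-likelihood method of edgeR 0 of 4 had an adjusted p under 0.05, beside 0% of 2866 features. At an unadjusted p under 0.05 the count was again 0 of 4, beside 5.30% of all features, and the exact test of edgeR, DESeq2 and limma voom called 0 of 4. Over all 2866 features the exact test called 13. The adjusted p was 0.999 for each in edgeR after Benjamini-Hochberg adjustment. The median log2 difference was 0.10 over the 4 members and -0.03 over all features. With library totals the median of all features moved to -1.09, that of the members to -1.11, and all 4 members were below 0, so that signs at 46 days are given for TMM.

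Rfx3 was the best covered of the 4 at this time. Its lowest, median and highest levels were 23.3, 28.2 and 43.2 CPM in TESA and 20.1, 29.1 and 41.6 CPM in CTRL. TESA 11 and CTRL 14 and 10 were the high libraries, and the ranges nearly coincided. The log2 difference was 0.04 with a 95% interval from -0.35 to 0.43. It was below 0 in 5 of 25 alternatives. Among these were library totals (-1.02), TESA 11 left out (-0.073) and libraries 1 to 10 alone (-0.037).

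Rfx2 had 5.93, 9.15 and 16.1 CPM (lowest, median and highest) in TESA and 0, 9.63 and 12.6 CPM in CTRL. CTRL 08 was listed at 0, which allows up to 0.348 CPM, although it held 252 counts of Rfx3 and 34 of Crem. The other 6 CTRL libraries were at least 7.60 CPM and overlapped with TESA. The log2 difference was 0.19 (SE 0.53). It was -0.064 without CTRL 08, 0.62 in libraries 1 to 10 alone and 1.34 under limma voom.

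Crem had 0, 2.76 and 4.35 CPM (lowest, median and highest) in TESA and 1.32, 3.12 and 3.94 CPM in CTRL, a log2 difference of -0.06 with a 95% interval from -0.75 to 0.63. With library totals it was -1.39, outside that interval, beside -1.09 for the median of all features. The difference was -0.21 without CTRL 09, 0.012 without TESA 02 and 0.0038 without CTRL 14. The 0 stood in TESA 02, where it allows up to 3.49 CPM, above the median of either group, so it does not set TESA 02 apart from the other libraries. The highest Crem level in TESA came from 11 counts in TESA 12. Tcfl5 had 1.164, 2.55 and 5.93 CPM in TESA and 1.11, 2.78 and 3.82 CPM in CTRL. Its lowest TESA level came from 1 count in TESA 02 and its highest from 15 counts in TESA 12. Its log2 difference was 0.16 (SE 0.33), it was -0.34 in libraries 1 to 10 alone, and it was -0.0025 without TESA 02 and 12, the libraries with the fewest counts of the members.

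**Figure D3:**
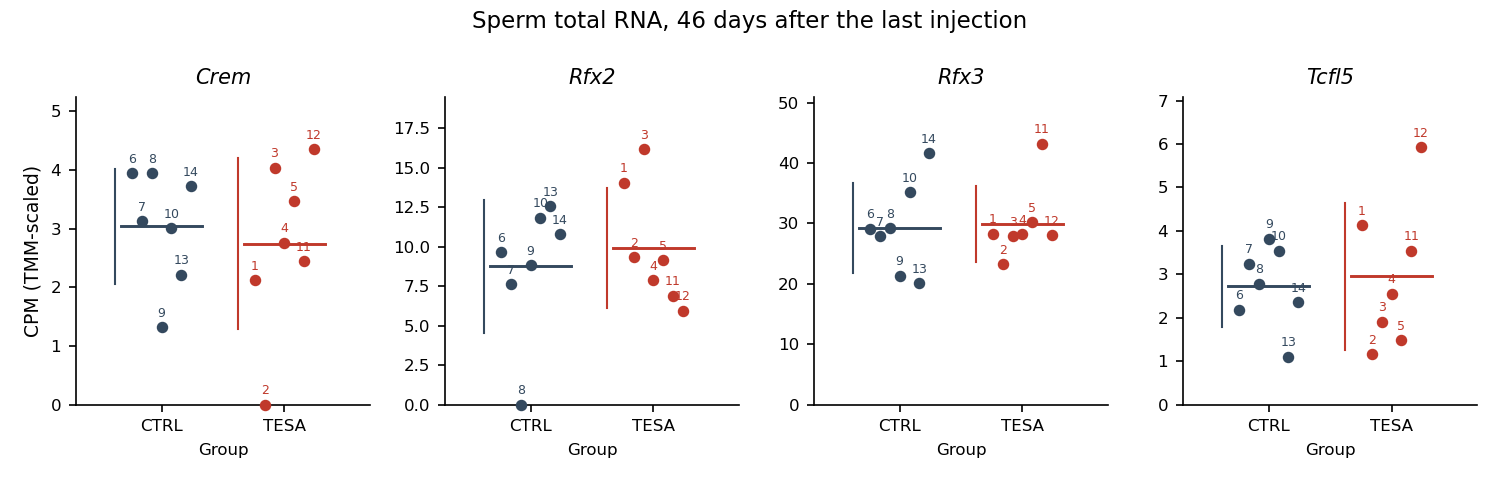
TMM-scaled CPM (vertical axis) of the 4 members found at 46 days in each library, by group (horizontal axis), with the library number above each point. Long horizontal lines are group means and vertical lines 1 SD to either side. The groups overlap for each gene, and Rfx2 is listed at 0 in CTRL 08 and Crem in TESA 02.

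The lists around the members gave no call at 46 days either. Tested were 9 other regulators (median log2 difference 0.01), 20 genes of the CREM-driven programme (median 0.05), 7 ciliary genes (median -0.03) and 4 piRNA or meiotic genes (median 0.03). Each median took both signs when single libraries were left out, from -0.083 to 0.062, -0.024 to 0.096, -0.13 to 0.067 and -0.11 to 0.22. That of the regulators was also below 0 with either other count filter (-0.043) and without repeat families (-0.019), that of the piRNA or meiotic genes without repeat families (-0.021) and under limma voom (-0.17), and that of the ciliary genes was above 0 in DESeq2 (0.012). None was called by the quasi-likelihood method of edgeR at an adjusted p under 0.05, and none had an unadjusted p under 0.05.

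Whether the TESA difference changed between the times was tested by the interaction of treatment and time over 2680 features. In edgeR 0 of 4 members passed an adjusted p of 0.05, beside 0% of all features, and 0 of 4 had an unadjusted p under 0.05, beside 4.74%. The interaction (46 days minus 24 h) on the log2 scale was 0.80 for Rfx3, with a 95% interval from -0.70 to 2.31, and 0.34 for Crem, with one from -0.80 to 1.49. For Rfx2 it was 0.25, and 0.026 without CTRL 08, an alternative chosen after seeing the data; for Tcfl5 it was 0.24. With library totals the interaction of Rfx3 was 0.029, and those of the other 3 were below 0. The adjusted p was 0.994 for each in edgeR after Benjamini-Hochberg adjustment.

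The balance between both RFX factors differed between the tables. The ratio of Rfx3 counts to Rfx2 counts within a library, which no scaling changes, was 0.0284 to 0.566 in TESA and 0.190 to 1.02 in CTRL at 24 h. At 46 days it was 1.73 to 6.27 in the 7 TESA libraries and 1.60 to 3.86 in the 6 CTRL libraries with a count of Rfx2. Every 46-day ratio was above every 24 h ratio, and within either table TESA and CTRL overlapped. The ratios of TESA 02 and TESA 12 at 46 days rested on 8 and 15 counts of Rfx2. How many other gene pairs separate the tables in this way was not counted, so the separation is not particular to these genes as far as known. This ratio was chosen after its values were seen and carries no test. The ratio of Crem to Rfx2 overlapped between the tables, with 0.266 to 0.857 at 24 h and 0 to 0.733 at 46 days, and so did that of Tcfl5 to Rfx2.

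The profile of Rfx2 over the 8 libraries at 24 h was most like those of Tnp2, RP23-100C7.3 and Dnaja4. Their root mean square differences from Rfx2 in mean-centred log2 CPM were 0.134, 0.150 and 0.153, the smallest among 13671 features. Tnp2 encodes a transition protein of condensing spermatids, Dnaja4 a heat shock cochaperone, and RP23-100C7.3 is named by its clone. Rfx3, whose TESA libraries split, was added as a second target after seeing the data, and its nearest were Tnrc6c, Stam and Sgip1, at 0.498, 0.498 and 0.556.

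Promoters of the members, windows of 300 bases around an annotated transcript start, were searched for short motifs of such factors in the RefSeq sequences of GRCm38.p6. Windows of 8 members were searched, 9 windows in all, 2 of them for Fhl5. No window of Crem or Mybl1 was searched. The windows of Rfx3, Sox5, Sox30 and Tbpl1 and 1 of those of Fhl5 lie inside the annotated genes and not at their outermost start. GTTGCC, 1 arm of the X-box that RFX factors bind, was searched on both strands and was present in the windows of Rfx2, Rfx3 and Sox5, and in 12.5% of all 32851 promoters. These are shown because both RFX genes hold the letters of their own family's motif. The capitals mark GTTGCC, or GGCAAC where it lay on the other strand, and each run reads 5′ to 3′ on the strand of the gene, which is the minus strand in all 3.
Rfx2, chr17:56831109-56831134: cttggtaaccGTTGCCgggcgcaacg
Rfx3, chr19:28011120-28011145: tatagcaaccGTTGCCttgtgaatca
Sox5, chr6:143947107-143947132: aagtgacttaGGCAACaggaatggtt

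The other motifs were searched in the same way. The CRE, TGACGTCA, was in none of the 9 windows, which do not include Crem, and in 1.79% of all promoters. Its core, TGACG, which is part of it, was in the Rfx2 window and in 20.8% of all. The E-box CACGTG was in the Brdt window (7.15% of all). The SOX motif AACAAT was in 1 window of Fhl5 (10.7% of all), and ACAATG, which can overlap with it, in that of Sox5 (12.6%). The MYB motif AACTG was in windows of Fhl5, Sox5, Tcfl5 and Tbpl1, and in 44.8% of all promoters. A match is a description of these letters and no measure of binding.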

How the data were processed

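Sperm RNA was compared between TESA and CTRL in 8 polyA libraries (24 h) and 14 total RNA libraries (46 days). The authors trimmed reads with Trim Galore 1.16 and quantified them with Salmon 0.11.2 on GENCODE transcripts, piRNA precursors and repeat families, versions per the submitters' processing notes. The deposited values are estimated counts per gene or repeat family, not normalized. Each table holds the more abundant features, by a filter not given in the sources used here. The serum table was not used here. The paper counts fewer TESA libraries at 46 days than the labels. Which one it left out is not given in the sources used here, so all were used.

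Estimated counts were rounded to whole numbers and scaled by TMM over all features of a table. A feature was tested if its count exceeded 20 in 4 or more libraries (24 h) or 6 or more (46 days), 80% of the smallest group rounded up. TESA was compared with CTRL by quasi-likelihood F tests (edgeR 4.0.16, R 4.3.3). P-values were adjusted after Benjamini and Hochberg over all features tested in a table, with a threshold of 0.05. Standard errors were derived from the F statistic. Treatment by time was tested in 1 edgeR model over the features that passed in both tables.

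Members and lists were chosen with earlier results of these data known. Named were all members and, in each of 4 lists, the 3 genes highest in CPM and the 2 with the smallest unadjusted p at 24 h; 8 lists of cell type markers were summed. Likeness used a prior count of 2, and both its targets were chosen after the data were seen. They were Rfx2, the member highest in CPM at 24 h, in place of the member highest per kilobase, and Rfx3. Levels per kilobase of transcript had been planned and were not computed. Also run were DESeq2 1.42.0, edgeR's exact test, limma 3.58.1 voom with quality weights, other scalings and count filters, repeat families left out, and libraries left out. The tests were tested on simulated data. Depth was 4538102 to 27709990 counts per library, and some 46-day libraries, TESA 02 most, hold few counts of the members. Plots were drawn with matplotlib 3.10.9 in Python 3.11.15.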

Additional observations from a re-analysis of the deposited data

Results flagged for a closer look

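In 62 groups of library values (levels of the members, summed marker levels, count ratios and library totals) 5 had a library far from the others of its group by Dixon's test at the 95% level, which flags about 1 in 20 groups by chance. Crem had 25.7 CPM in TESA 7 at 24 h, while the next TESA library had 13.3 CPM. Fhl5 had 4.60 CPM in CTRL 2 at 24 h, where the next CTRL library had 1.86 CPM. Rfx2 was listed at 0 CPM in CTRL 08 at 46 days, below the next CTRL library at 7.60 CPM. Rfx3 had 43.2 CPM in TESA 11 at 46 days, and the next TESA library had 30.2 CPM. The total of TESA 04 at 46 days was 13513816 counts, against 9154094 in the next TESA library. The causes were not tested.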

How the results depend on the processing

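The number of members called stayed at 0 at both times and for the interaction under every alternative run. At an unadjusted p under 0.05, 1 member, Rfx3, was counted at 24 h under limma voom with quality weights, and 0 to 1 when single libraries were left out, the 1 being Crem without CTRL 4. Over all features, edgeR's exact test called 13 at 46 days, where the quasi-likelihood test called 0. At 24 h 142 of 144 alternative values of the members' log2 differences kept their sign; the exceptions were Tbpl1 with library totals (0.085) and Tcfl5 without CTRL 8 (without single libraries, -0.47 to 0.064). With single libraries left out the other ranges at 24 h were -1.001 to -0.33 for Crem, -1.75 to -0.92 for Fhl5, -0.44 to -0.039 for Rfx2, -1.61 to -0.50 for Rfx3, -0.73 to -0.012 for Sox30, 0.73 to 1.165 for Sox5, -0.49 to -0.039 for Tbpl1 and -0.61 to -0.20 for Brdt. At 46 days 14 of 100 changed sign. With library totals the differences were -1.39 for Crem, -1.21 for Rfx2, -1.02 for Rfx3 and -0.83 for Tcfl5, beside a median of -1.09 over all features, and the interactions were -1.05 for Crem, -1.13 for Rfx2, -0.65 for Tcfl5 and 0.029 for Rfx3. Tcfl5 was -0.11 under limma voom, -0.34 in libraries 1 to 10 alone and -0.0025 without libraries 02 and 12, an alternative chosen after seeing the data. In libraries 1 to 10 alone Rfx3 was -0.037 and Rfx2 0.62, and Rfx2 was 1.34 under limma voom. Without CTRL 08, also chosen after seeing the data, the interaction of Rfx2 was 0.026. With single libraries left out at 46 days the values ran from -0.21 to 0.012 for Crem (above 0 without TESA 02 or CTRL 14), -0.064 to 0.28 for Rfx2 (below 0 without CTRL 08), -0.073 to 0.15 for Rfx3 (below 0 without TESA 11, CTRL 09 or CTRL 13) and -0.048 to 0.25 for Tcfl5 (below 0 without TESA 12). The cause of these changes was not tested. With library totals 5 of 8 mean levels at 46 days moved by more than 1 SD, and all 4 list medians at 46 days moved down to as low as -1.49. Levels by coding length were not run, since no lengths were used here. No paired analysis was possible because the groups compared share no replicate numbers.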
